A study of Mus musculus with 9 samples.

Results

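Imprinted genes are read mainly from the copy inherited from 1 parent, and many of them adjust the growth of the fetus and of its stem cells. Here 10 such genes were followed in stromal cells of mouse bone marrow, H19, Igf2, Meg3, Dlk1, Cdkn1c, Peg3, Plagl1, Grb10, Mest and Ndn, taken by symbol from the 30579 genes of the deposited table. As background, the copies expressed from the father's chromosome (Igf2, Dlk1, Peg3, Plagl1, Mest, Ndn) and those expressed from the mother's (H19, Meg3, Cdkn1c and, outside neurons, Grb10) lie in clusters, each under a control region whose DNA methylation differs between egg and sperm. Igf2 is a secreted growth factor, Grb10 and Cdkn1c restrain growth signalling and the cell cycle, and H19 and Meg3 are long noncoding RNAs. After birth most of these genes are switched down together in many tissues, while some of them stay active in adult stem and progenitor cells. The table sums both parental copies, so which copy gave the RNA was not measured.

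Mesenchymal stromal cells, which form the supporting meshwork of the marrow, were sorted from long bones and their RNA was sequenced. The labels give 3 groups of 3 libraries: young controls of 3 months, aged controls of 18 months, and aged Thbs1 knockouts, also of 18 months. In all groups the mice had been given an antibody against VE-cadherin, a protein of vessel walls, 10 minutes before death. The sources used here do not give the strain, the kind of knockout allele, the sort gates or whether libraries of 1 group are separate mice. All p-values below thus refer to the spread between libraries, which may be technical. Levels are FPKM, fragments per kilobase of transcript scaled to the size of the library, and can be compared between genes per length.

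Thbs1 encodes thrombospondin-1, a secreted matrix protein, and its RNA checks the knockout label. Its level was 74.98, 73.1 and 58.0 FPKM in the young controls, 35.6, 41.9 and 36.9 FPKM in the aged controls, and 24.3, 44.5 and 37.0 FPKM in the libraries labelled aged Thbs1 knockout. The labelled-knockout libraries overlapped the aged controls (log2 fold change -0.15, SE 0.26, limma adjusted p = 0.801). Thbs1 RNA therefore did not separate these groups, and "labelled knockout" below names the label only. Stromal identity was clear in all libraries, with Cxcl12 between 2873 and 6044 FPKM and Lepr between 233 and 673 FPKM. Estimated depth was 17.8 to 27.6 M fragments (M, mega) per library. Labelled-knockout replicate 2 stood apart, with correlations to the other libraries of 0.738 to 0.811 and 13503 detected genes, fewer than any other. An estimated 4.27% to 31.9% of fragments in the aged controls and 19.2% in labelled-knockout replicate 2 came from immunoglobulin genes, against 0.00382% to 0.170% in the young controls and 0.162% and 2.36% in labelled-knockout replicates 1 and 3. FPKM of all other genes is lowered where such genes take a large share.

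H19, Igf2, Meg3 and Mest each host a microRNA gene. The mature forms are shown for H19 and Mest, the hosts with the highest levels, because host RNA is often read as a stand-in for them. H19 carries Mir675 in an exon, and Mest carries Mir335 in an intron. In the RefSeq sequences (GRCm38.p6), written 5′ to 3′ with the seed, bases 2 to 8, in capitals, all 4 seeds differ.
mmu-miR-675-5p: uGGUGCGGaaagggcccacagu
mmu-miR-675-3p: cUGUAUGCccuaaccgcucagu
mmu-miR-335-5p: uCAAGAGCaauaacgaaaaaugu
mmu-miR-335-3p: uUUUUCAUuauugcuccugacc
The first lies at chr7:142577112-142577133 on the minus strand and the third at chr6:30741314-30741336 on the plus strand. In these libraries the Mir675 row was listed at 0 in all 9, and the Mir335 row at 0 in 8, with 3.32 FPKM in labelled-knockout replicate 3. Libraries of this kind do not capture mature microRNAs, so the rows speak of the precursor RNA only.

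Promoters are shown for Plagl1, Grb10, Mest and Ndn, the tested members that have a RefSeq window. These genes were lower in every aged than in every young control, as were 37.4% of all tested genes, and none passed the limma test. Each window covers 250 bases before to 50 after a RefSeq start (GRCm38.p6), written 5′ to 3′ in the direction of the gene. Where a gene has several starts, the window with the most CpG pairs was taken. Capitals mark TGCCGC or its reverse complement GCGGCA, the hexamer that the imprint-guarding protein Zfp57 binds when its CpG is methylated.
Plagl1, chr10:13090582-13090881, plus strand: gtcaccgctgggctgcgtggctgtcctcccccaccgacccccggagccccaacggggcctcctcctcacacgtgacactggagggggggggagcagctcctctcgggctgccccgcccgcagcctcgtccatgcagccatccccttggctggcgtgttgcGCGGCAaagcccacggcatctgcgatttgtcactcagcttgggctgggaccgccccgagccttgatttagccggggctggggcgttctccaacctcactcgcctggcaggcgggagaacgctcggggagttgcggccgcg
Grb10, chr11:12037371-12037670, minus strand: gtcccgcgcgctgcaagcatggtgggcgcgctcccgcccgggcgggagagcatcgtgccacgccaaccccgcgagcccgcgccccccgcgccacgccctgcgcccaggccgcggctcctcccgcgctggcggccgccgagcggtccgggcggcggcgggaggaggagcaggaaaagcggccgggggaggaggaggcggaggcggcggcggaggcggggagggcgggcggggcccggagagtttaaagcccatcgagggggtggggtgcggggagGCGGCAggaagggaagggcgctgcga
Mest, chr6:30737800-30738099, plus strand: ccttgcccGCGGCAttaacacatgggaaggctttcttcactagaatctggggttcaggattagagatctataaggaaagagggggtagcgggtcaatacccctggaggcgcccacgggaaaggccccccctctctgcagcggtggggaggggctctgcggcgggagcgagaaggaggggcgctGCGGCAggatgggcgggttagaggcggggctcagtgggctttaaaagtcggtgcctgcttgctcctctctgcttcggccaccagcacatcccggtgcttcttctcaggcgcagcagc
Ndn, chr7:62348027-62348326, plus strand: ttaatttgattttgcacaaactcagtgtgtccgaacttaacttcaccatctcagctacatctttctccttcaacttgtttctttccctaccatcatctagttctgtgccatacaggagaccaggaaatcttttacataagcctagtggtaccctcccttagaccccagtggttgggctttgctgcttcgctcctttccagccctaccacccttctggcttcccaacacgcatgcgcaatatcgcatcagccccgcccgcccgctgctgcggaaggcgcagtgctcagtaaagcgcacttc
The Grb10 window held 45 CpG pairs, the Plagl1 window 26, the Mest window 17 and the Ndn window 11, against a median of 7 over 32851 RefSeq promoter windows of this length. The hexamer was found once in Plagl1, once in Grb10 and at 2 places in Mest, and was not in the Ndn window. Of all windows, 11.6% held it on either strand. Those windows were not picked by their CpG pairs, as the Grb10 and Mest windows were, so neither comparison is like for like there. A further Grb10 window held 9 CpG pairs, and the Mest window with the fewest held 8. Both lacked the hexamer, which itself holds a CpG. Such a match is a description of the letters, and methylation was not measured here. RefSeq windows were found for 8 of the 10 genes, all but H19 and Cdkn1c.

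The 10 genes ranged from among the most abundant to levels at or near 0. Averaged over the 9 libraries, Cdkn1c stood at 60.7 FPKM, above 97.4% of all genes in the table. Grb10 (11.0 FPKM), Ndn (8.72 FPKM) and Plagl1 (8.20 FPKM) formed a middle group, followed by Mest (2.50 FPKM), H19 (1.39 FPKM) and Peg3 (0.659 FPKM). Meg3 (0.178 FPKM), Dlk1 (0.0456 FPKM) and Igf2 (0.0189 FPKM) were lowest, so the growth factor Igf2 was listed at or near 0, with a limit on its counting given further on. Cdkn1c was above the other 9 genes in every library. All other neighbours in this order overlapped in at least 1 group, and Ndn and Plagl1, H19 and Peg3, and Dlk1 and Igf2 overlapped in all 3. Of the 10 genes, 6 reached 1 FPKM in at least 3 libraries and entered the test across 11988 genes: Cdkn1c, Grb10, Ndn, Plagl1, Mest and H19. H19 reached that level only in the 3 labelled-knockout libraries, so it could be tested only by being high there.

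**Figure D1:**
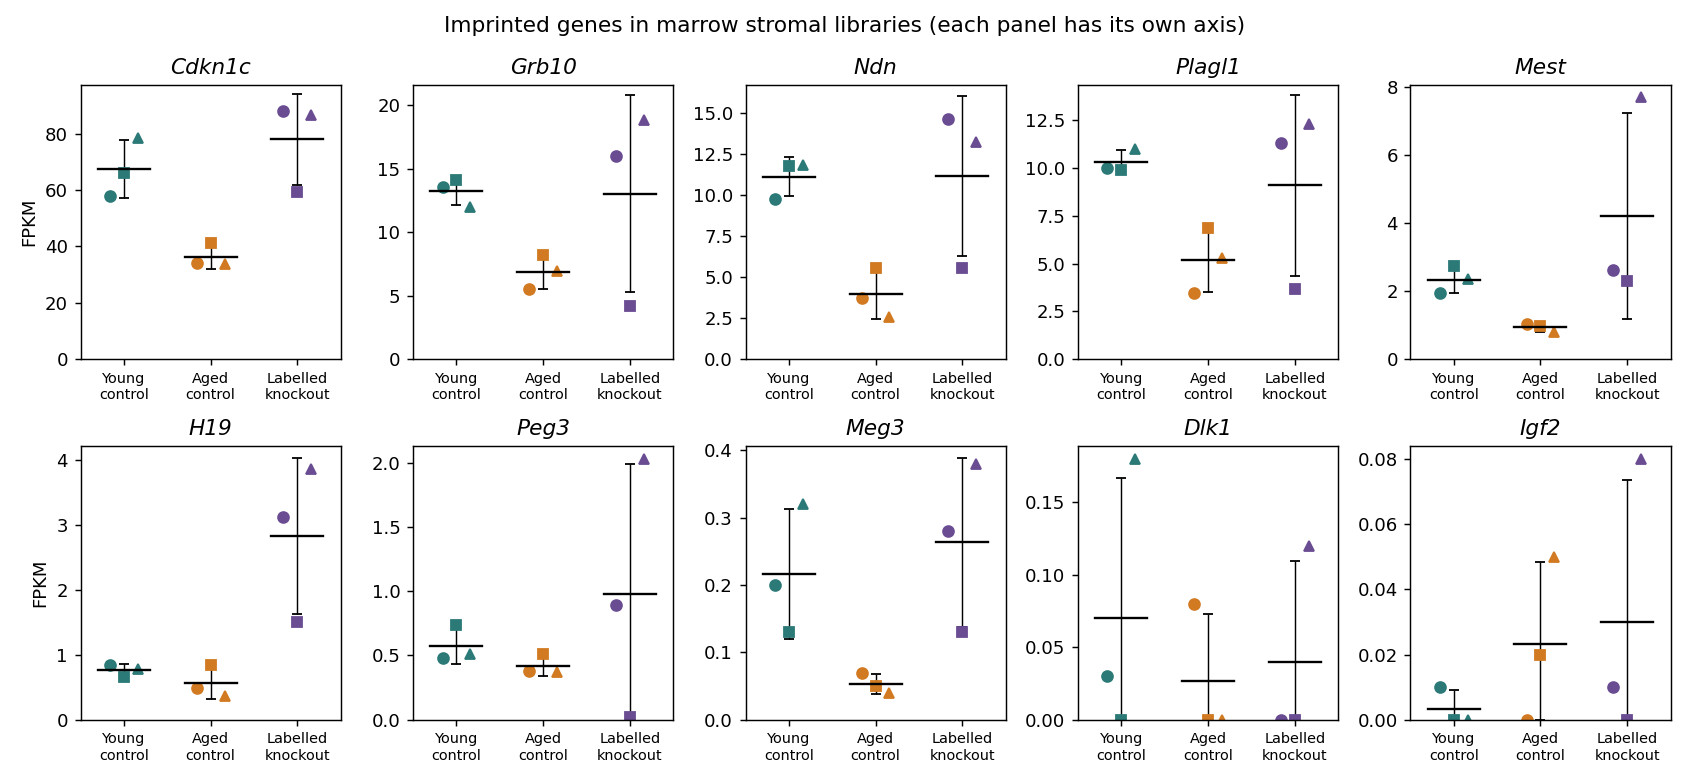
Level of each of the 10 genes in FPKM (linear axis from 0, a different range in each panel) by group, with replicate 1 as a circle, 2 as a square and 3 as a triangle. The horizontal line is the group mean and the bar 1 SD (n = 3), shown only above 0. Cdkn1c, Ndn, Grb10, Plagl1, Mest and Meg3 lie lower in all 3 aged controls than in all 3 young controls, as do 37.4% of all tested genes. Labelled-knockout replicate 2 lies under replicates 1 and 3 except for Dlk1, where replicate 1 is also at 0.

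In aged against young controls, Cdkn1c, Grb10, Plagl1, Mest and Ndn had means of 35.5% to 53.8% of the young level, and none passed the test. Of the 6 tested genes 0 passed the limma test at an adjusted p of 0.05, while 4.04% of all tested genes did (484 genes, 2.57% higher and 1.47% lower). At an unadjusted p under 0.05 there were 3 of 6 (Cdkn1c, Ndn and Plagl1), against 21.7% of all tested genes. All 6 fold changes were below 0 (H19 turned to 0.15 with scaling to stromal markers), as were 74.5% of all, and 5 of 6 genes were lower in every aged than in every young library, as were 37.4% of all. The median log2 fold change was -0.87 over the 6 genes and -0.28 over all tested genes. With libraries rescaled to a common median ratio, which moved the median of all genes to 0.00, it was -0.57. A bulk measurement cannot tell fewer cells of a type from less RNA per cell.

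In labelled-knockout libraries against aged controls, all 6 tested genes had fold changes above 0, where 44.3% of all tested genes were below 0, and 2 rose past the threshold, Cdkn1c and H19. Of all tested genes 3.48% passed (417 genes), 1.52% higher. At an unadjusted p under 0.05 there were 4 of 6, with Mest and Ndn, against 19.8% of all. Since H19 entered the test only through its level in the labelled-knockout libraries, Cdkn1c, 1 of the other 5, is the count free of that choice. In 3 of the 5 genes other than H19, and in H19, every labelled-knockout library was above every aged control, against 16.6% of all tested genes. The median log2 fold change was 1.07 over the 5 genes other than H19 (1.15 with it) and 0.07 over all tested genes. Both calls were narrow. H19 lost its call in each of the 6 fits that left out a library and could still test it, and Cdkn1c kept its call only when labelled-knockout replicate 2 was left out.

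In labelled-knockout libraries against young controls, 0 of 6 genes passed the limma test, with 0.025% of all tested genes passing (3 genes). At an unadjusted p under 0.05 there was 1 of 6, H19, against 8.63% of all tested genes. H19 was also the 1 of 6 that was higher in every labelled-knockout than in every young library, as were 4.08% of all tested genes. That separation was set by the filter, which H19 passed only through the labelled knockouts, with all controls under 1 FPKM. Among the other 5 genes both counts were 0. The median log2 fold change was -0.09 over the 5 genes other than H19 (0.05 with it) and -0.16 over all. Cdkn1c (0.20), Mest (0.50) and Ndn (-0.09), Grb10 (-0.23) and Plagl1 (-0.30) lay around 0, and the signs of the last 3 turned without labelled-knockout replicate 2 (0.30, 0.37 and 0.18). The intervals were wide, for Grb10 from -1.24 to 0.78, so that equal levels in these groups are not shown. The aged controls enter both of the comparisons before this one, whose opposite signs are therefore not independent of each other.

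**Figure D2:**
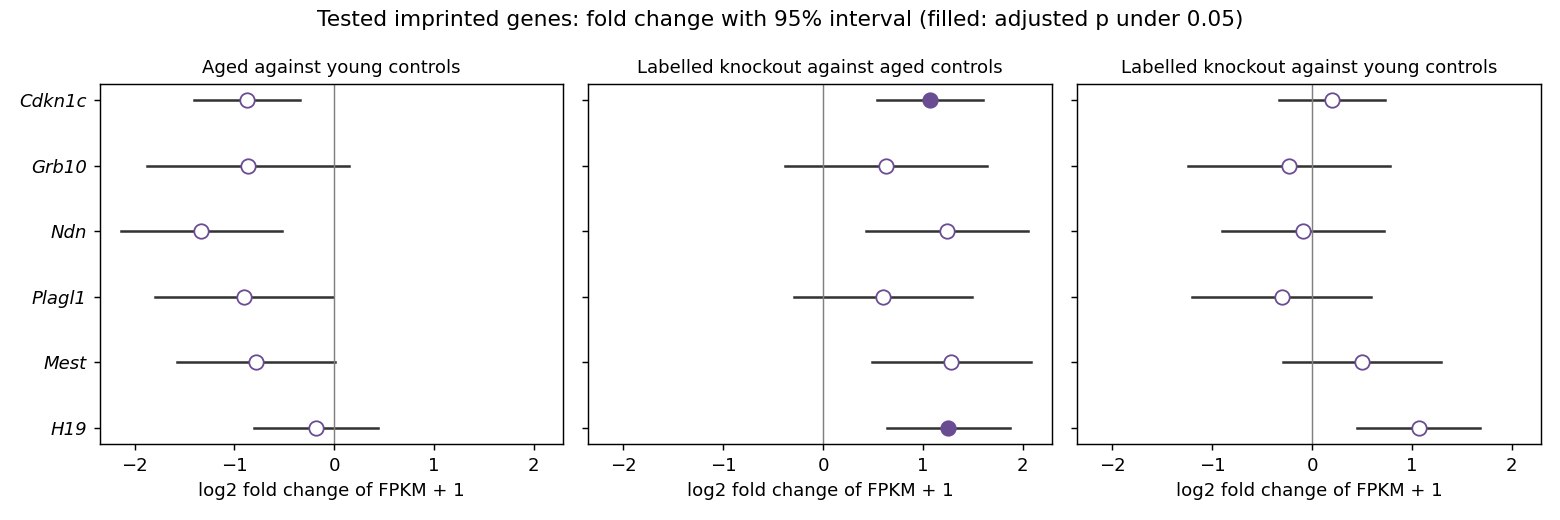
Log2 fold change of FPKM + 1 (horizontal axis) with its 95% interval from limma for the 6 tested genes in the 3 comparisons. Filled points, Cdkn1c and H19 in labelled knockouts against aged controls, passed an adjusted p of 0.05. All 6 points lie below 0 in the left panel, where H19 turned to 0.15 with scaling to stromal markers, and above 0 in the middle panel.

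Cdkn1c encodes p57, an inhibitor of cyclin-dependent kinases that holds stem cells out of the cell cycle. The gene lies at chr7:143458339-143461050 on the minus strand (GRCm38, GENCODE M21). Its level was 58.0, 66.0 and 78.6 FPKM in the young controls, 34.0, 41.2 and 33.7 FPKM in the aged controls, and 88.2, 59.4 and 86.7 FPKM in the labelled knockouts. All aged controls were below all other libraries, and the young and labelled-knockout ranges overlapped. The share of all tested genes with all aged controls lowest, a pattern seen below in Mest and Meg3 too, was not counted. The mean in aged controls, 36.3 ± 4.26 FPKM, was 53.8% of that in young controls, 67.5 ± 10.4 FPKM (SD, n = 3; log2 fold change -0.87, SE 0.24, limma adjusted p = 0.0761). In the labelled knockouts it was 78.1 ± 16.2 FPKM, 2.15 times the aged mean (log2 fold change 1.07, SE 0.24, limma adjusted p = 0.0452). Against the young mean the log2 fold change was 0.20 (interval -0.34 to 0.73). An antisense gene, Gm44732, covers 30.7% of the Cdkn1c exons, and the use of strand in counting is not given in the sources used here, so reads of the pair cannot be told apart there. Between 1432 and 4704 estimated fragments stood behind each Cdkn1c value.

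Grb10 encodes an adaptor that binds the insulin and IGF1 receptors and dampens their signal, and it lies at chr11:11930508-12038683 on the minus strand. Its level was 13.5, 14.1 and 11.98 FPKM in the young controls, 5.50, 8.16 and 6.91 FPKM in the aged controls, and 15.96, 4.21 and 18.9 FPKM in the labelled knockouts. Aged controls were below young controls without overlap, and the labelled knockouts were split, with replicate 2 the lowest of all 9 libraries and replicates 1 and 3 the highest. The log2 fold change in aged against young controls was -0.87 (SE 0.45, limma adjusted p = 0.301). The labelled knockouts against aged controls gave 0.63 (SE 0.45, adjusted p = 0.476).

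Plagl1 encodes a zinc-finger transcription factor, also called Zac1, that has been described as a regulator of other imprinted genes. It lies at chr10:13060504-13131694 on the plus strand. Its level was 10.0, 9.89 and 11.0 FPKM in the young controls, 3.45, 6.86 and 5.28 FPKM in the aged controls, and 11.3, 3.67 and 12.3 FPKM in the labelled knockouts. The pattern was close to that of Grb10: each aged control below each young control, labelled-knockout replicates 1 and 3 on top, and replicate 2 within the aged range, where Grb10 was below it. The log2 fold changes were -0.90 (SE 0.40, limma adjusted p = 0.226) in aged against young controls and 0.60 (SE 0.40, adjusted p = 0.441) in labelled knockouts against aged controls. Of the 15 pairs among the 6 tested genes, Plagl1 and Grb10 had the most alike profiles, with a root mean square difference of 0.16 on the log2 scale over 9 libraries, each profile centred on its own mean. The pair is not particular to the set: 7 tested genes outside it were closer to Plagl1 than Grb10 was, and 8 were closer to Grb10 than Plagl1 was. Cdkn1c and Ndn followed at 0.30, and H19 and Plagl1 were least alike at 0.61. No gene outside the set is named by likeness, because no member reached the spread the rule asked for, an SD of 1 on the log2 scale.

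Ndn encodes necdin, a MAGE family protein that restrains proliferation in neurons and blood stem cells, and is a gene with 1 exon at chr7:62346569-62350262 on the plus strand. Its level was 9.75, 11.7 and 11.8 FPKM in the young controls, 3.74, 5.52 and 2.57 FPKM in the aged controls, and 14.6, 5.55 and 13.2 FPKM in the labelled knockouts. Ndn had the lowest aged share of the 6 tested genes, 35.5% of the young mean (3.94 ± 1.49 against 11.1 ± 1.17 FPKM, SD, n = 3). That difference missed the threshold (log2 fold change -1.33, SE 0.36, limma adjusted p = 0.0751), as did the higher level in labelled knockouts than in aged controls (1.24, SE 0.36, adjusted p = 0.102). The latter passed with libraries rescaled to a common median ratio (1.14, adjusted p = 0.0469). Labelled-knockout replicate 2, at 5.55 FPKM, was just above the highest aged control, at 5.52 FPKM. Magel2, the neighbour of Ndn in the same imprinted cluster, was at 0 in 7 libraries and at 0.01 and 0.04 FPKM in labelled-knockout replicates 1 and 3.

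Mest encodes a protein of the hydrolase fold family that has been studied in the growth of fat tissue, and lies at chr6:30723547-30748465 on the plus strand. Its level was 1.93, 2.73 and 2.36 FPKM in the young controls, 1.04, 0.97 and 0.79 FPKM in the aged controls, and 2.62, 2.30 and 7.72 FPKM in the labelled knockouts. All aged controls were below all other libraries, and labelled-knockout replicate 3 stood far above the rest. The log2 fold changes were -0.78 (SE 0.35, limma adjusted p = 0.235) in aged against young controls and 1.29 (SE 0.35, adjusted p = 0.0871) in labelled knockouts against aged controls. The 3′ end of Mest overlaps that of Copg2 on the other strand over 23.1% of the Mest exon length, and Copg2 too was highest in labelled-knockout replicate 3, at 8.61 FPKM against 2.33 to 7.22 FPKM elsewhere. Reads from the overlap cannot be told apart without strand.

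Peg3, a zinc-finger gene at chr7:6703892-6730431 on the minus strand known for its part in growth and maternal behaviour, stayed under the filter. Its level was 0.48, 0.74 and 0.51 FPKM in the young controls, 0.38, 0.51 and 0.37 FPKM in the aged controls, and 0.89, 0.02 and 2.03 FPKM in the labelled knockouts. The controls overlapped, and the labelled-knockout libraries held both the highest and the lowest value of the series, resting on an estimated 581 and 5 fragments. Without the filter the log2 fold changes were -0.15 in aged against young controls (limma adjusted p = 0.885) and 0.34 in labelled knockouts against aged controls (adjusted p = 0.685).

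H19 lies at chr7:142575529-142578143 on the minus strand, next to Igf2, with which it shares enhancers and a control region. The H19 RNA is abundant in the fetus and is shut off in most tissues after birth. Its level was 0.84, 0.66 and 0.78 FPKM in the young controls, 0.49, 0.84 and 0.36 FPKM in the aged controls, and 3.13, 1.51 and 3.86 FPKM in the labelled knockouts. Young and aged controls overlapped, and every labelled-knockout library, replicate 2 included, was above all 6 controls. The estimated fragments behind these values were 18 to 57 in the controls and 202, 68 and 204 in the labelled knockouts. The mean in labelled knockouts, 2.83 ± 1.20 FPKM, was 5.03 times that in aged controls, 0.563 ± 0.248 FPKM (SD, n = 3; log2 fold change 1.25, SE 0.27, limma adjusted p = 0.0432). Against young controls, at 0.760 ± 0.0917 FPKM, the log2 fold change was 1.07 (SE 0.27, adjusted p = 0.381). With all 22712 detected genes tested, which removes the choice made by the filter, H19 did not pass in labelled knockouts against aged controls (adjusted p = 0.0956, with 0.405% of genes passing). Between young and aged controls the log2 fold change of H19 was -0.18 (interval -0.80 to 0.44), and it turned to 0.15 when libraries were scaled to stromal markers.

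Igf2, at chr7:142650766-142666816 on the minus strand, was listed at 0.01, 0 and 0 FPKM in the young controls, 0, 0.02 and 0.05 FPKM in the aged controls, and 0.01, 0 and 0.08 FPKM in the labelled knockouts. These values rest on 0 to 10 estimated fragments per library, and 3 fragments, the limit that a count of 0 allows, correspond to 0.0190 to 0.0295 FPKM. Differences of Igf2 between groups were not detectable at this depth. The antisense Igf2os stood at 0.04 FPKM or less, and Mir483 within Igf2 was listed at 0. Another protein-coding gene on the same strand, Gm49394, covers 62.8% of the Igf2 exon length in GENCODE M21, the largest such overlap of the 10 genes. No row of the deposited table has that symbol. How reads shared by both genes were counted is not given in the sources used here, so the values near 0 describe the deposited Igf2 row and may not hold all reads from the Igf2 exons.

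Dlk1 and Meg3 form the other locus with a coding gene and a noncoding RNA of opposite parental origin. Dlk1, a membrane protein that holds back fat cell formation, lies at chr12:109452823-109463336 on the plus strand. It stood at 0.03, 0 and 0.18 FPKM in the young controls, 0.08, 0 and 0 FPKM in the aged controls, and 0, 0 and 0.12 FPKM in the labelled knockouts. At most 20 estimated fragments stood behind a value, the groups overlapped, and 3 fragments correspond to 0.0192 to 0.0299 FPKM, so no difference was detectable. Meg3 lies at chr12:109541001-109571726 on the plus strand. It was at 0.20, 0.13 and 0.32 FPKM in the young controls, 0.07, 0.05 and 0.04 FPKM in the aged controls, and 0.28, 0.13 and 0.38 FPKM in the labelled knockouts. All 3 aged controls were below all other libraries, on 15 to 33 estimated fragments each against 42 to 148 in the others. Without the filter the log2 fold changes were -0.21 (SE 0.08, limma adjusted p = 0.285) and 0.26 (SE 0.08, adjusted p = 0.206), both small because 1 FPKM is added to every value before the logarithm. On the FPKM scale the aged mean of Meg3 was 24.6% of the young mean. The other noncoding RNA of this cluster in the table, Mirg, and the gene Rtl1 were at or near 0, and Rian is not analysed here.

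The library that stood apart decided many of these results. In labelled-knockout replicate 2, Grb10, Plagl1 and Peg3 were within or below the range of the aged controls, Ndn was level with the highest of them, and Cdkn1c, Mest, H19 and Meg3 were above them. Labelled-knockout replicates 1 and 3 were above all aged controls for each of the 6 tested genes, of which H19 was tested only through its level there. For Cdkn1c, Grb10, Plagl1, Ndn, H19 and Peg3 these replicates were the 2 highest libraries of the series. The share of all tested genes with either pattern was not counted, so neither is shown to be particular to the set. Without replicate 2, H19 was not tested, Cdkn1c, Grb10, Ndn and Plagl1 fell in aged against young controls (4 of 5, limma adjusted p of 0.00753 for Ndn to 0.0202 for Plagl1), and Cdkn1c, Grb10, Mest, Ndn and Plagl1 rose in labelled knockouts against aged controls (5 of 5, adjusted p of 0.00594 for Ndn to 0.0207 for Plagl1). The background rose with them: 23.1% of all tested genes then passed in the former comparison (17.9% lower) and 16% in the latter (11.5% higher). A setting chosen after seeing the data used neither the filter nor that library, the lowest labelled knockout for H19. There H19 rose in labelled knockouts against aged controls by 1.53 (SE 0.19, limma adjusted p = 0.0115, against 0.0956 with that library kept). Meg3 stood at 0.34 (adjusted p = 0.0510). In that setting 4.79% of all genes passed, and 7.01% in aged against young controls, where 4 members fell. A fit to the 6 control libraries alone called 5 of 5 tested members lower in aged controls (18.7% of all genes passed), and a fit to the 6 libraries of 18 months called none in the labelled knockouts (0.122% of all genes passed).

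**Figure D3:**
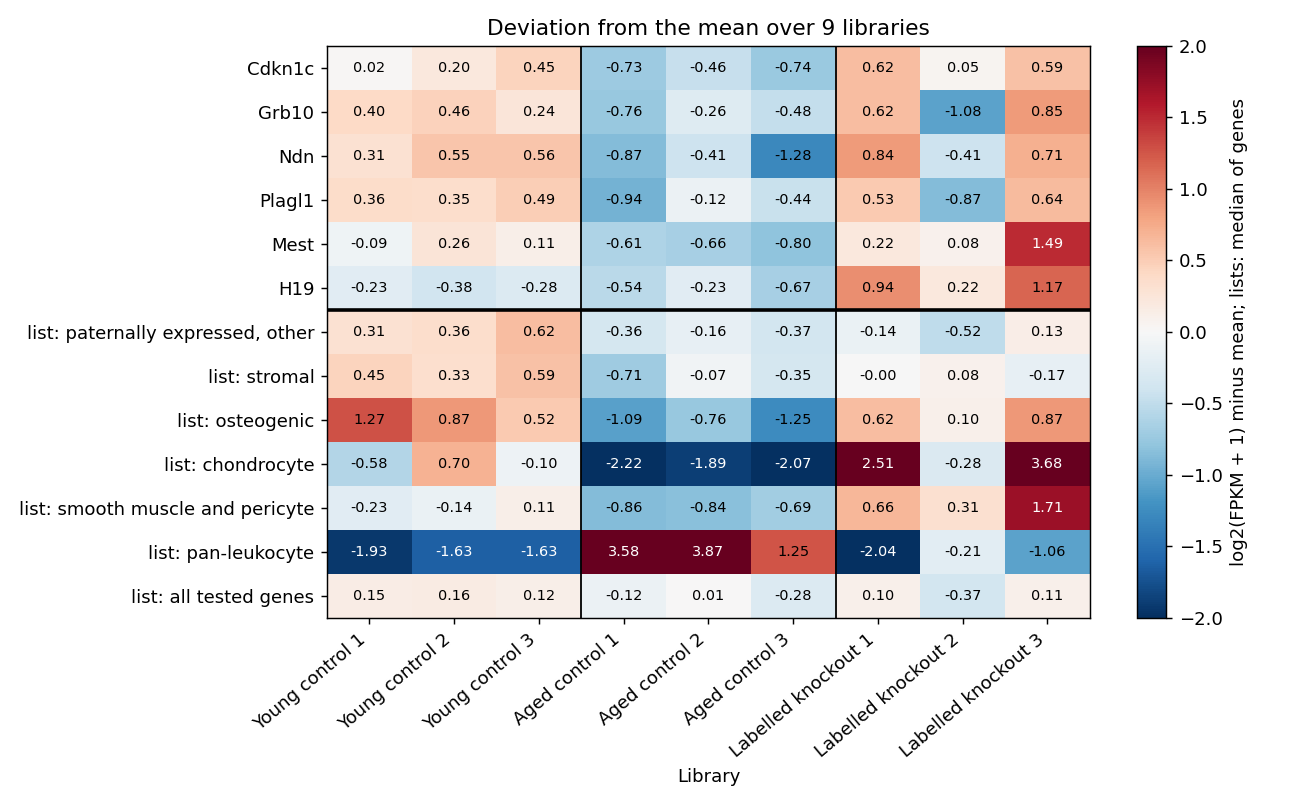
Deviation of each library (columns) from the mean over 9 libraries on the log2(FPKM + 1) scale, for the 6 tested genes (upper rows) and as the median over the tested genes of marker lists and of all genes (lower rows). Color is limited to 2 in either direction, and the printed numbers give the full values. Labelled-knockout replicate 2 differs in sign from replicates 1 and 3 for Grb10, Ndn and Plagl1, and replicates 1 and 3 carry high chondrocyte marker medians of 2.51 and 3.68.

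Markers of some other cell types moved along with these genes, and their part in the results was not tested. The summed level of 10 pan-leukocyte markers was 57.0 to 99.6 FPKM in the young controls, 600 to 1366 FPKM in the aged controls, and 64.0, 658 and 145 FPKM in the labelled knockouts, with Ptprc at 0 to 4.14 FPKM in all libraries. Of 9 tested leukocyte markers, 7 rose in aged against young controls and 6 fell in labelled knockouts against aged controls. The 4 libraries lowest in Grb10 and Plagl1, the aged controls and labelled-knockout replicate 2, were the 4 highest in the leukocyte sum. In labelled-knockout replicate 2 that sum was mostly Cd52, at 545 FPKM. Cd53 was at 30.6 FPKM there, but Lcp1 at 0.74 FPKM and Coro1a at 0.75 FPKM, its lowest of the 9 libraries. The median deviation of the tested leukocyte markers was -0.21 in that library. It was 1.25 to 3.87 in the aged controls and -2.04 to -1.06 in the other libraries. Chondrocyte markers summed to 154 to 365 FPKM in the young controls, 42.8 to 66.2 FPKM in the aged controls, and 1234, 143 and 3226 FPKM in the labelled knockouts, where 6 of 9 rose against aged controls. Among them Col2a1, the main collagen of cartilage, was at 668, 46.8 and 1665 FPKM and Sox9, its regulator, at 36.3, 12.2 and 44.9 FPKM in the labelled knockouts. Labelled-knockout replicate 3, the highest library for H19, Mest and Peg3, was also the highest in cartilage genes. Osteogenic markers fell in 5 of 10 in aged against young controls and rose in 4 of 10 in labelled knockouts against aged controls, and smooth muscle and pericyte markers rose in 3 of 6 in the latter. Without labelled-knockout replicate 2, 8 of 10 osteogenic and 8 of 9 chondrocyte markers fell with age, as did 17.9% of all tested genes. In that setting 5 of 6 smooth muscle and pericyte markers rose in labelled knockouts against aged controls, as did 11.5% of all. Each of these marker counts was 0 in at least 1 of the fits that left out another library. Skeletal muscle markers summed to at most 3.46 FPKM in the controls and labelled-knockout replicate 1, and to 22.6 and 29.4 FPKM in labelled-knockout replicates 2 and 3. In replicate 2 the sum was Mylpf alone, at 22.6 FPKM, with every other marker of the list at 0. Endothelial markers summed to 1.22 to 13.6 FPKM, with Cdh5 at 0.01 to 1.99 FPKM. The highest sum, in aged control replicate 2, was mostly Pecam1, at 11.6 FPKM. Not every list moved: 0 of 3 macrophage and 0 of 6 erythroid markers passed in either comparison. Of 7 neutrophil markers 1 rose with age, while 6 had fold changes below 0, and 1 fell in labelled knockouts against aged controls.

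Set against stromal markers of the same library, Cdkn1c no longer separated young from aged controls, and labelled-knockout replicates 1 and 3 stood above all controls for each of the 6 tested genes. The share of all tested genes for which these replicates did so was not counted. Of 10 stromal markers 0 passed the limma test in aged against young controls (6 at an unadjusted p under 0.05, against 21.7% of all tested genes). Their median log2 fold change was -0.77, near that of the imprinted genes, against -0.28 over all tested genes. Without labelled-knockout replicate 2, 6 of the 10 fell (Ebf3, Foxc1, Grem1, Kitl, Prrx1 and Vcam1), as did 17.9% of all tested genes. In that setting 1, Vcam1, rose in labelled knockouts against aged controls, as did 11.5% of all. Per 1000 units of the geometric mean of these markers, Cdkn1c stood at 420, 485 and 569 units in the young controls. The aged controls had 545, 418 and 426 units and the labelled knockouts 764, 538 and 947 units. On this scale young and aged controls overlapped for Cdkn1c, Grb10, Mest and H19, and aged controls were below young controls without overlap for Plagl1 and Ndn. H19 was at 6.09, 4.85 and 5.64 units in the young controls and 7.85, 8.52 and 4.55 units in the aged controls. The labelled knockouts had 27.1, 13.7 and 42.1 units, each again above all controls. Grb10 reached 138 and 206 in labelled-knockout replicates 1 and 3, 38.1 in replicate 2 and 82.8 to 104 in the controls. With the libraries rescaled by the median log2 deviation of the same markers before the test, the log2 fold change of Cdkn1c was -0.03 in aged against young controls (limma adjusted p = 0.958) and 0.71 in labelled knockouts against aged controls (adjusted p = 0.232), and that of H19 in the latter was 1.14 (adjusted p = 0.0786). No member passed on that scale.

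Other imprinted genes were looked at as lists chosen with results of these data known. Of 22 further paternally expressed genes 9 were tested, and 0 passed the limma test in any comparison. At an unadjusted p under 0.05 there were 5, 0 and 3 in the order of the comparisons above. The shares of all tested genes were 21.7%, 19.8% and 8.63%. In aged against young controls all 9 were below 0, as were 74.5% of all tested genes. Without overlap 7 were lower, as were 37.4% of all. The median log2 fold change was -0.81 over the 9 genes and -0.28 over all tested genes. The smallest p-values were those of Mcts2 (-1.21, SE 0.31, limma adjusted p = 0.0620) and Nap1l5 (-0.97, SE 0.29, adjusted p = 0.0986). The median of the 9 genes in labelled knockouts against aged controls was 0.16, against 1.07 for the 5 tested members other than H19 (1.15 with it) and 0.07 over all tested genes. The smallest p-values there were those of Mcts2 (0.59, SE 0.31, adjusted p = 0.323) and Inpp5f (0.50, SE 0.28, adjusted p = 0.371). Nap1l5, for instance, stayed at 0.85, 0.24 and 1.06 FPKM in the labelled knockouts, inside the 0.18 to 1.09 FPKM of the aged controls and below the 2.05 to 2.44 FPKM of the young controls. Without labelled-knockout replicate 2, 5 of the 9 fell with age (Mcts2, Nap1l5, Nnat, Sgce and Zrsr1), as did 17.9% of all tested genes. In that setting 1, Nnat, rose in labelled knockouts against aged controls, as did 11.5% of all.

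Of 24 further maternally expressed genes in the table, 14 were tested. Asb4, a subunit of ubiquitin ligases, fell in aged against young controls from 5.73 ± 0.318 to 1.58 ± 0.520 FPKM (SD, n = 3; log2 fold change -1.40, SE 0.25, limma adjusted p = 0.0211) and was the only 1 of the 14 to pass. It rose in labelled knockouts against aged controls, to 4.47 ± 1.19 FPKM (1.08, SE 0.25, adjusted p = 0.0491), again alone among the 14. Leaving out 1 library kept the first call in 5 of 9 fits (it was lost without any of the young controls or aged control replicate 1, adjusted p up to 0.144) and the second in 1 of 9, that without labelled-knockout replicate 2. Without that library 4 of the 14 fell with age, Asb4, Cd81, Slc22a18 and Tfpi2, where 23.1% of all tested genes passed. Asb4 was at 5.54, 6.10 and 5.56 FPKM in the young controls, 1.59, 2.10 and 1.06 FPKM in the aged controls, and 5.54, 4.67 and 3.19 FPKM in the labelled knockouts. Unlike Grb10 and Plagl1 it was not low in labelled-knockout replicate 2. The medians of the maternally expressed list were -0.25 and 0.02, close to those of all genes. Whether the genes of this list are imprinted in these cells was not measured.

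Among signalling partners and relatives of the set, Irs1, Igf1 and Cdkn1a fell with age. Irs1, which relays insulin and IGF1 receptor signals that Grb10 dampens, fell from 18.9 ± 2.53 to 6.96 ± 2.18 FPKM in aged against young controls (log2 fold change -1.35, SE 0.26, limma adjusted p = 0.0265). It was 1 of 6 tested genes in a list of receptors of Igf2, the receptor adaptors Irs1 and Irs2, and RNA-binding proteins of Igf2. The labelled knockouts against aged controls gave 1.04 for Irs1 (adjusted p = 0.0630). The imprinted scavenger receptor Igf2r, which removes Igf2, did not pass in either (-0.47, adjusted p = 0.290, and 0.69, adjusted p = 0.155). Of 8 tested relatives of the members that are not known as imprinted, 2 fell with age: Igf1, the growth factor related to Igf2 (-1.72, SE 0.23, adjusted p = 0.00837), and Cdkn1a, the p21 relative of Cdkn1c (-1.65, SE 0.34, adjusted p = 0.0331). For Igf1 the young controls held 41.1, 44.6 and 55.6 FPKM, the aged controls 10.97, 15.9 and 13.9 FPKM and the labelled knockouts 20.75, 18.7 and 25.3 FPKM, without overlap between any groups, while Igf2 was listed near 0 throughout. Against aged controls, in the labelled knockouts Cdkn1a stood at 1.38 (adjusted p = 0.0594) and Igf1 at 0.63 (adjusted p = 0.170). A list named imprint maintenance also holds genes that set or remove DNA methylation, such as Dnmt3a and Tet2. Of its 14 tested genes, 0 passed the limma test in either comparison (1 and 2 at an unadjusted p under 0.05, against 21.7% and 19.8% of all tested genes). The smallest p-values were those of Trim28, the partner of Zfp57 (-0.63, adjusted p = 0.155), and Dnmt1 (0.46, adjusted p = 0.337) in the former comparison, and of Trim28 (0.68, adjusted p = 0.148) and Zfp445 (-0.49, adjusted p = 0.239) in the latter.

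The library that stood apart also decided calls in these lists. Without labelled-knockout replicate 2, 5 of the 8 relatives fell with age, Cdkn1a, Igf1, Maged1, Maged2 and Mageh1, and 4 rose in labelled knockouts against aged controls, the same without Igf1. Trim28, 1 of 14 in its list, then fell with age, and Irs1, 1 of 6, rose in labelled knockouts against aged controls. Of all tested genes 17.9% fell with age in that setting, and 11.5% rose in labelled knockouts against aged controls. The calls in aged against young controls were lost without any 1 of the young controls or aged control replicate 1 for Igf1 (adjusted p up to 0.0797), and without these or aged control replicate 3 for Irs1 (up to 0.194) and Cdkn1a (up to 0.226). In labelled knockouts against young controls 0 genes of these 5 lists passed the limma test. At an unadjusted p under 0.05 there were 3, 2, 0, 1 and 2 in the order in which the lists were described, against 8.63% of all tested genes. The smallest p-values by list were those of Nap1l5 (-0.97, adjusted p = 0.419) and Zrsr1 (-0.91, 0.486), Ube3a (-0.63, 0.545) and Tfpi2 (-0.70, 0.554), Irs1 (-0.31, 0.691) and Igf2r (0.22, 0.761), Igf1 (-1.09, 0.278) and Mageh1 (-0.46, 0.621), and Zfp445 (-0.60, 0.486) and Ctcf (-0.51, 0.554), each with its log2 fold change and adjusted p.

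**Figure D4:**
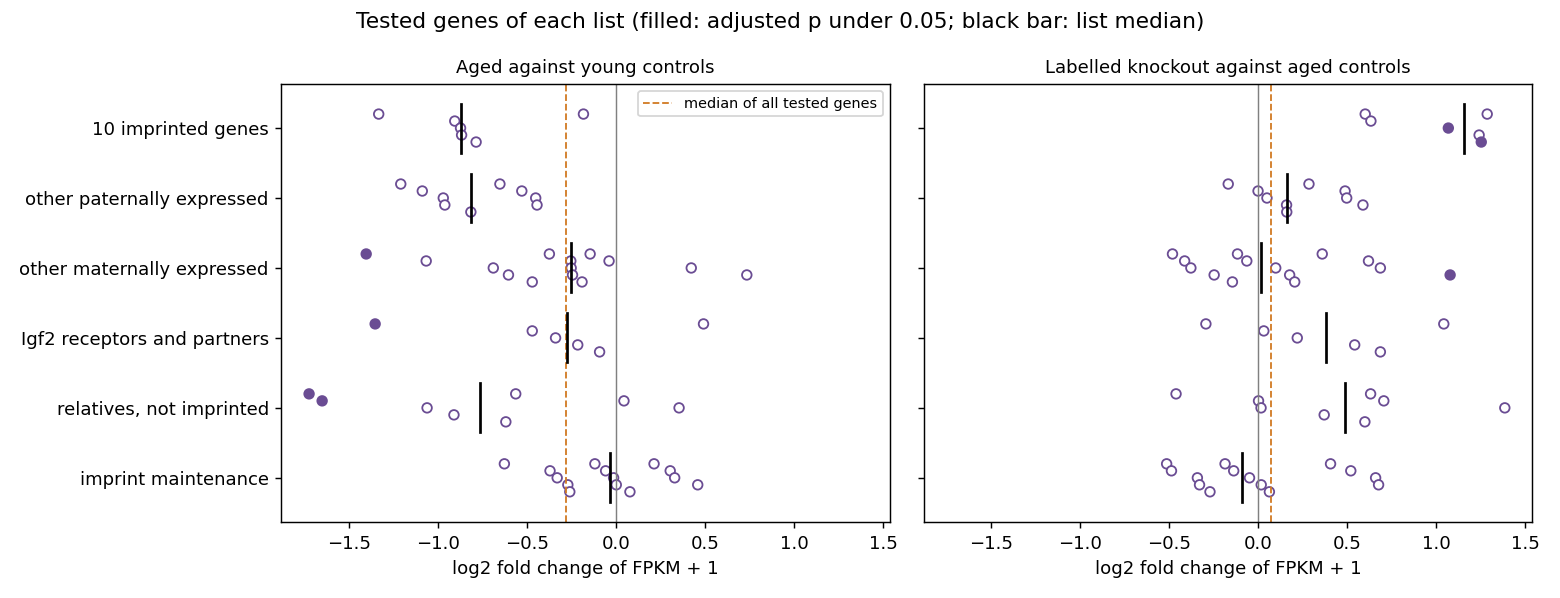
Log2 fold change of FPKM + 1 (horizontal axis) of each tested gene in the set and in 5 lists of related genes, for aged against young controls (left) and labelled knockouts against aged controls (right). Black bars are list medians, the dashed line is the median of all tested genes, and filled points passed an adjusted p of 0.05. The other paternally expressed genes lie with the set at left (medians -0.81 and -0.87, all tested genes -0.28). At right they lie near 0, where the set has a median of 1.15 (1.07 without H19).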

How the data were processed

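The deposited table gives FPKM per gene for 9 libraries, rounded to 2 decimals, per the file headers and the values. Per the labels' protocols, libraries were prepared with SMART-Seq v4, a kit for low input, using 2 ng of RNA from cells sorted into TRIzol. FastQC 0.11.5, STAR, edgeR and GRCm38 (mm10) appear, with no role stated, in the submitters' processing notes. The sources used here do not give the annotation, the read counter, its use of strand or its handling of reads that map to several places.

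Columns were matched to samples by title and groups taken from the genotype label. Tests used limma 3.58.1 in R 4.3.3 with an intensity trend on log2(FPKM + 1), for genes that reached 1 FPKM in 3 or more libraries. Group means of the 9 libraries were fitted together, with 6 residual degrees of freedom. Benjamini-Hochberg adjustment covered all genes tested, at a threshold of 0.05. Adding 1 FPKM compresses the fold changes of low genes. The values are not counts, so no count model was used. The fit was tested on simulated data.

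Gene models came from GENCODE M21, matched by symbol for 98.7% of genes. Depth was estimated from the steps between low FPKM values times gene length, sought between 3 and 60 M fragments (M, mega). At the step found, 99.2% to 99.8% of the values used were whole within 0.15, on the low genes searched. A multiple of the step outside that window was not tried, and intervals and limits cover counting error only. Other settings tried were a minimum of 5 FPKM, no filter, a pseudocount of 0.1, 3 rescalings, no trend, array weights, a replicate block, fits of the 6 compared libraries, each library left out, and median-ratio rescaling without labelled-knockout replicate 2. A further rescaling, to stromal markers, and 2 combined settings were chosen after seeing the data.

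All 10 members were described in every comparison, with Thbs1 as the targeted gene and, from each related list, the genes that passed or else the 2 with the smallest p. The members and lists were chosen with earlier results of these data known. Python 3.11.15, numpy 2.4.6, pandas 2.3.3 and matplotlib 3.10.9 were used for annotation, depth and figures.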

Additional observations from a re-analysis of the deposited data

How the results depend on the processing

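The 6 tested genes kept the sign of their fold changes in the first and second comparisons under every alternative run, except H19 in aged against young controls (0.15 with rescaling to stromal markers). In labelled knockouts against young controls, where no member passed, the signs of Plagl1, Grb10 and Ndn turned with array weights (0.24, 0.37 and 0.25), rescaling to stromal markers (0.15, 0.23 and 0.37), without labelled-knockout replicate 2 (0.18, 0.37 and 0.30, the same with no filter as well), and without it under median-ratio rescaling (0.23, 0.42 and 0.35) or with immunoglobulin genes left out (0.24, 0.43 and 0.36). Ndn also turned under median-ratio rescaling alone (0.10). Leaving out 1 library in turn gave -0.57 to 0.18 for Plagl1, -0.59 to 0.37 for Grb10 and -0.32 to 0.30 for Ndn. The causes were not tested.

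In aged against young controls, where 0 members and 484 genes passed, leaving out 1 library gave 0 to 4 members and 4 to 2729 genes, the highest of both without labelled-knockout replicate 2 and the fewest genes without aged control replicate 1. Members called were 1 under quantile normalization (Ndn), 5 with array weights (7419 genes), 5 in the fit of 6 libraries (2155 genes) and, without labelled-knockout replicate 2, 1 under median-ratio rescaling (1268 genes), 2 with immunoglobulin genes left out (1273 genes) and 4 with no filter (1586 genes). With no filter alone 138 genes passed. Of the genes called, 63.6% were higher in aged controls, against 84.0% under median-ratio rescaling and 85.3% with immunoglobulin genes left out. These rescalings moved the median of all genes from -0.28 to 0.00 and -0.02, and that to stromal markers moved it to 0.42.

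In labelled knockouts against aged controls, where 2 members and 417 genes passed, leaving out 1 library gave 0 to 5 members and 13 to 1895 genes, again the highest without labelled-knockout replicate 2. Members called were 1 with a pseudocount of 0.1 or with immunoglobulin genes left out, 3 under median-ratio rescaling (Ndn gained, adjusted p = 0.0469), 4 under quantile normalization, 6 with array weights (6347 genes), and 0 with no filter (92 genes), a minimum of 5 FPKM (199 genes, H19 not tested), rescaling to stromal markers and the fit of 6 libraries (14 genes). Without labelled-knockout replicate 2 they were 5 under median-ratio rescaling (1354 genes), with immunoglobulin genes left out (1347 genes) and with no filter (1084 genes). In labelled knockouts against young controls, 3 genes and 0 members became 1414 genes and 3 members with array weights, 2 to 37 genes when leaving out 1 library, and, without labelled-knockout replicate 2, 49 genes under median-ratio rescaling, 55 with immunoglobulin genes left out and 16 with no filter.

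Libraries of different groups share only a replicate number: deviations from the group means of same-numbered libraries correlated between -0.29 and 0.30, so the numbers were not taken to pair them. With the replicate block, 120, 64 and 2 genes passed in the comparisons in the order given above and 0 members in each, with adjusted p of 0.108 for H19 and 0.122 for Cdkn1c in labelled knockouts against aged controls.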
